A study of Mus musculus with 17 samples.

Results

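The cell-cycle genes described here are 46 genes that copy DNA or divide the cell, together with the cyclins, kinases and inhibitors that control entry into the cycle. A gene was kept where the array's probe-to-gene table gave it a probe set with that symbol alone, and it was represented by its brightest such probe set over all arrays. This left 45 members of 12393 genes measured, comprising 20 replication genes, 18 mitosis genes, 4 genes of the G1 phase and 3 inhibitors of cyclin-dependent kinases. Ccnb1, which encodes cyclin B1, was not analysed here.

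The tissue was the tibialis anterior, a fast shin muscle, and each of 17 samples was run on its own Affymetrix array. The 5 fiona arrays held muscle of mdx mice that also carry a transgene giving high utrophin, and no source used here gives the promoter that drives it. The 6 mdx arrays held muscle of the mdx line, which lacks dystrophin because of a mutation in its gene. The 6 normal arrays held muscle of wild-type mice. All mice were labelled male and 56 days old, and the muscles of both legs were combined. The arrays were labelled biological replicates, and their number limits the precision of every value. All values are deposited log2 expression values, so a difference of 1 is a 2-fold change, and they set no gene's level against another gene's, because probe sets differ in brightness.

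Before a cell copies its DNA, licensing factors load the MCM helicase onto replication origins. Cyclin-dependent kinases then start the helicase, polymerases and ligases copy the strands behind it, and ribonucleotide reductase supplies the building blocks. Mitosis follows, when cyclin B and its kinase drive entry, a checkpoint holds the chromosomes until the spindle has attached to each of them, and a ubiquitin ligase then releases them. Adult muscle fibres do not divide. The dividing cells of mdx muscle include satellite cells and their myoblast progeny, which rebuild damaged fibres, and infiltrating immune cells.

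Adult fast-fibre markers averaged between 14.29 and 14.68 on every array. Dmd, the dystrophin gene, measured 3.23 to 3.53 in fiona, 3.27 to 3.52 in mdx and 6.33 to 6.88 in normal muscle on its second brightest probe set. Utrn, the utrophin gene, lay above the control level in 4 of 5 fiona, 0 of 6 mdx and 0 of 6 normal arrays on each of its dimmer 2 probe sets; on the brightest, the ranges of all 3 groups overlapped. Although all mice were labelled male, Xist and the Y-linked gene Eif2s3y gave a female pattern in 4 fiona arrays (1, 2, 3 and 5), 2 mdx arrays (1 and 4) and 1 normal array (6). Mdx array 6, counted as male, was mixed, with Xist at 5.40 and Eif2s3y at 8.11. Fits on arrays of male pattern hold 1 fiona array, assumed to vary like those of the other groups. The control level of an array is the median of its 15 probe sets for Bacillus subtilis genes. It lay between 2.75 and 2.99 in fiona, 2.65 and 2.75 in mdx and 2.64 and 2.87 in normal arrays, and 32.1% of all genes were called higher in fiona than in mdx muscle.

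Many cell-cycle genes gave little signal in this muscle. Of the 45 members, 33 lay above the control level on all arrays and 6 lay at or under it on all arrays: Mcm5, Pola1, Lig1, Tk1, Ccnb2 and Plk1. The 6 dim genes have only a bound on their level, so their differences are between values at the control level and no fold change is read from them. Over all arrays, 18 members varied by less than 1 on the log2 scale, including the 6 dim genes; 8 of the 18 were replication genes and 9 mitosis genes. The heatmap of members by array shows how few of them stood apart in mdx muscle.

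**Figure D1:**
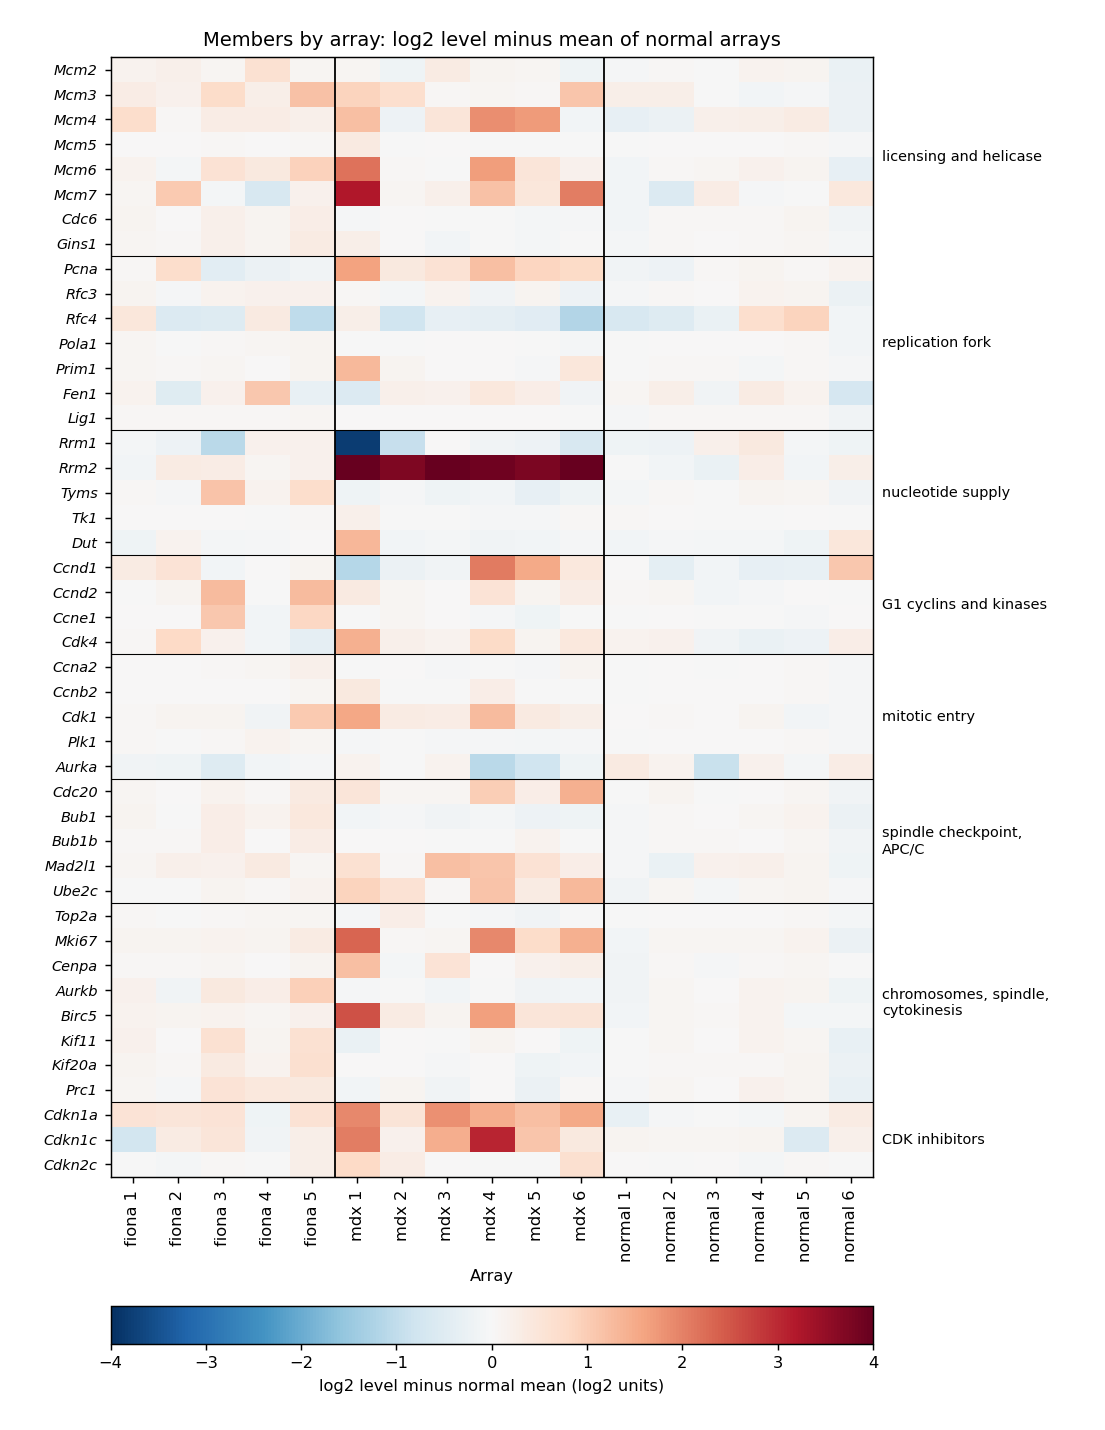
Level of each member on each array, as the log2 value minus the mean of that gene over the normal arrays, with genes grouped by role and arrays in the order fiona, mdx, normal. Rrm2 is high on all 6 mdx arrays, while Mki67 and Birc5 are highest on mdx arrays 1 and 4.

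E2F words were found mainly in promoters of replication genes, and CHR words mainly in those of mitosis genes. Promoter windows running from 250 bases before to 50 bases after the start site were available for 38 of the 46 members (RefSeq, GRCm38.p6). They were searched on both strands for E2F words (TTTCCCGC, TTTCGCGC, TTTGCCGC and TTTGGCGC), for the cell-cycle homology region, or CHR (TTTGAA and TTCGAA), and for the CCAAT box (CCAAT). E2F proteins are known to act on many replication genes, and CHR and CCAAT boxes are known from promoters of mitosis genes. An E2F word stood in 8 of 18 replication genes (44.4%) and 1 of 16 mitosis genes (6.25%), against 2.6% of all 27025 genes in the promoter table. A CHR word stood in 4 of 18 replication genes (22.2%) and 13 of 16 mitosis genes (81.2%), against 21.7% of all genes. The CCAAT box stood in 61.1% of replication and 87.5% of mitosis genes, against 41.1% of all genes. Ccnb1 is among the 16 mitosis genes, and a gene with several windows was counted once, for a word in any of them. These are matches of letters in a window, not binding sites.

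The promoters of 6 members are printed to show both kinds. The replication genes Rrm2 and Pcna and the mitosis genes Ube2c and Mad2l1 were called higher in mdx than in normal muscle, Mcm6 was so on its second probe set, and Mki67 was called lower in fiona muscle than in mdx. Each runs 5′ to 3′ on the strand of its gene, and capitals mark the E2F, CHR and CCAAT words. Mcm6 holds 3 E2F words, at -110, -106 and -47 from the start site, of which the first pair overlap. Mki67 holds 2 CHR words, at -116 and -98, and Ube2c 1, at -29. No E2F or CHR word stood in the windows of Rrm2 and Pcna, and each held 1 CCAAT box, while the window of Mad2l1 held none of the words searched.
Rrm2 promoter, GRCm38.p6 chr12:24708004-24708303, + strand: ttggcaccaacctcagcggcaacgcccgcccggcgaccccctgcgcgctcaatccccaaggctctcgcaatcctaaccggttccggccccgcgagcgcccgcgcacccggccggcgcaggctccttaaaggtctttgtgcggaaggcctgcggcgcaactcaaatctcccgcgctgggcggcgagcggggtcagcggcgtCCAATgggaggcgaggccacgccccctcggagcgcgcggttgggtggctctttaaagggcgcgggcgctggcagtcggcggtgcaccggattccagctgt
Pcna promoter, GRCm38.p6 chr2:132253131-132253430, - strand: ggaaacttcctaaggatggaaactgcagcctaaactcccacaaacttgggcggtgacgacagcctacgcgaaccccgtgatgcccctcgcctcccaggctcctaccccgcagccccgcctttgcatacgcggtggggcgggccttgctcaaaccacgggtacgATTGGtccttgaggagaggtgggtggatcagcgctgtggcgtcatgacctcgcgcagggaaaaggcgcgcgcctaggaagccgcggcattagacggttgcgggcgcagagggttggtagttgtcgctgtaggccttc
Mcm6 promoter, GRCm38.p6 chr1:128359656-128359955, - strand: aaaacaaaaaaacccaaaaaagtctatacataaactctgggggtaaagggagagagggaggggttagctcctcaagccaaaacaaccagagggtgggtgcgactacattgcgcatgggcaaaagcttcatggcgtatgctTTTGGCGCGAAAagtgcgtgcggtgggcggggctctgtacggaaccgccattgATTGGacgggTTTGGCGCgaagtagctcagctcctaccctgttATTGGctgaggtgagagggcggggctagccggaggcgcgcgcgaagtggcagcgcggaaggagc
Ube2c promoter, GRCm38.p6 chr2:164769679-164769978, + strand: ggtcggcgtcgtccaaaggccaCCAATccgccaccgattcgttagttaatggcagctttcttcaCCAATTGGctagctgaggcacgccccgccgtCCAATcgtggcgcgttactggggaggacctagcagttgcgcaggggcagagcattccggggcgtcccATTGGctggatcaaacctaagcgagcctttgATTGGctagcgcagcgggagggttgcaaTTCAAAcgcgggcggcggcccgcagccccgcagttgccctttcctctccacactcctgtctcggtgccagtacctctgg
Mad2l1 promoter, GRCm38.p6 chr6:66534971-66535270, + strand: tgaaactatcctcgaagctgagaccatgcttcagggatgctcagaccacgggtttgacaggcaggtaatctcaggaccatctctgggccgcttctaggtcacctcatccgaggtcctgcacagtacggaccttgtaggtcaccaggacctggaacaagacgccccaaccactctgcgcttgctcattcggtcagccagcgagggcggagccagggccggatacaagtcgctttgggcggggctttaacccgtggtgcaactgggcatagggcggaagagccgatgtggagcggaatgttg
Mki67 promoter, GRCm38.p6 chr7:135716330-135716629, - strand: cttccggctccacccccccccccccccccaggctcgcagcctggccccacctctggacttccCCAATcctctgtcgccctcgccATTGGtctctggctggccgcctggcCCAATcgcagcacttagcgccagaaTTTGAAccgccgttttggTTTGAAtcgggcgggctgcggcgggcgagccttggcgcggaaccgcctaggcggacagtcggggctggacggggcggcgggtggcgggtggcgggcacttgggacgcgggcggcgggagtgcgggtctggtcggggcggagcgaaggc

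Rrm2, which encodes the regulatory subunit of ribonucleotide reductase, was the member that differed most between groups. It measured 3.17, 3.61, 3.58, 3.35 and 3.44 in the 5 fiona arrays. In mdx arrays its lowest, median and highest values were 7.02, 7.21 and 7.63, and in normal arrays 3.00, 3.23 and 3.55. All 6 mdx arrays lay far above every fiona and every normal array, and fiona and normal arrays overlapped. The mdx minus normal difference was 3.99 ± 0.12 (SE; 15.9-fold, adjusted p = 2.21e-11 in limma), and the fiona minus mdx difference was -3.84 ± 0.13 (14.3-fold lower in fiona, adjusted p = 8.0e-11). Fiona and normal muscle differed by 0.15, with a 95% interval from -0.12 to 0.42. This probe set was the brightest over all arrays only because of its mdx values. The second Rrm2 probe set was brighter in the other groups, at 3.69 to 4.00 in fiona and 3.59 to 4.00 in normal arrays. It measured 5.41 to 6.47 in mdx arrays, and its differences, given below with the other probe sets, were smaller. Both comparisons that involve mdx use the same mdx arrays, here and in all that follows. In bulk muscle, fewer cells of a type and less RNA per cell cannot be told apart.

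Across all members, mdx muscle differed from normal muscle in 5 of 45 genes, all of them higher (11.1%), while 3.22% of all genes were called higher and 1.44% lower. These were Rrm2, Pcna, Mad2l1, Ube2c and Cdkn1a, and 2 of them, Rrm2 and Cdkn1a, differed by at least 2-fold; 2.25% of all genes were called at least 2-fold higher and 0.452% at least 2-fold lower. In 4 members, Rrm2, Pcna, Cdk1 and Cdkn1a, all mdx arrays lay above all normal arrays (2.54% of all genes), and in 0 members all lay below (1.98% of all genes). The median difference was 0.05 over replication members and 0.01 over mitosis members, against -0.04 over all genes.

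Between fiona and mdx muscle, 7 members were lower in fiona (15.6%; 6.79% of all genes) and 9 were higher (20%; 32.1% of all genes). The 7 lower genes were Rrm2, Pcna, Mad2l1, Ube2c, Mki67, Cdkn1a and Cdkn1c, with Rrm2, Cdkn1a and Cdkn1c at least 2-fold lower (3.3% of all genes). The 9 higher genes were Tyms, Aurkb, Kif11, Prc1, Bub1, Kif20a, Cdc6, Plk1 and Pola1, with differences of 0.08 to 0.56; 2 of them, Plk1 and Pola1, are dim genes, and 0 of the 9 were at least 2-fold (0.234% of all genes). In 6 members all fiona arrays lay above all mdx arrays (30.2% of all genes), and in 1, Rrm2, all lay below (2.4% of all genes). The share of members called higher was below that of all genes. With the control level of each array as a covariate, 0 members were called higher and 1, Rrm2, lower. Over all genes that fit called 7 higher and 39 lower. Every fiona array had a higher control level than every mdx array, so the fit cannot separate that level from the group difference. Median-centring the arrays moved the calls over all genes to 1417 higher and 753 lower, and quantile normalization to 1470 higher and 597 lower, against 3977 and 841 in the deposited values. For mdx against normal, the all-gene calls were 399 higher and 179 lower in the deposited values, 516 and 1501 after median-centring and 434 and 302 after quantile normalization.

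Between fiona and normal muscle, 0 of 45 members and 0 of 12393 genes were called in limma (0.0%). An unadjusted p under 0.05 was reached by 2626 genes. Dmd, which is mutated in fiona mice, was among the genes not called. Yet on its brightest probe set every fiona array lay below every normal array. The count of 0 therefore does not show that the 2 groups are alike. Without fiona array 2 the all-gene counts were 856 higher and 118 lower, and in arrays of male pattern 332 and 134. In 0 members did all fiona arrays lie above all normal arrays (0.339% of all genes) or below them (0.5%). The median difference was 0.11 over replication members and 0.13 over mitosis members, against 0.04 over all genes. The 2 genes with the widest gap were Ccnd2 at 0.53 (95% interval 0.05 to 1.01, adjusted p = 0.215) and Mcm3 at 0.52 (95% interval 0.05 to 1.00, adjusted p = 0.215).

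**Figure D2:**
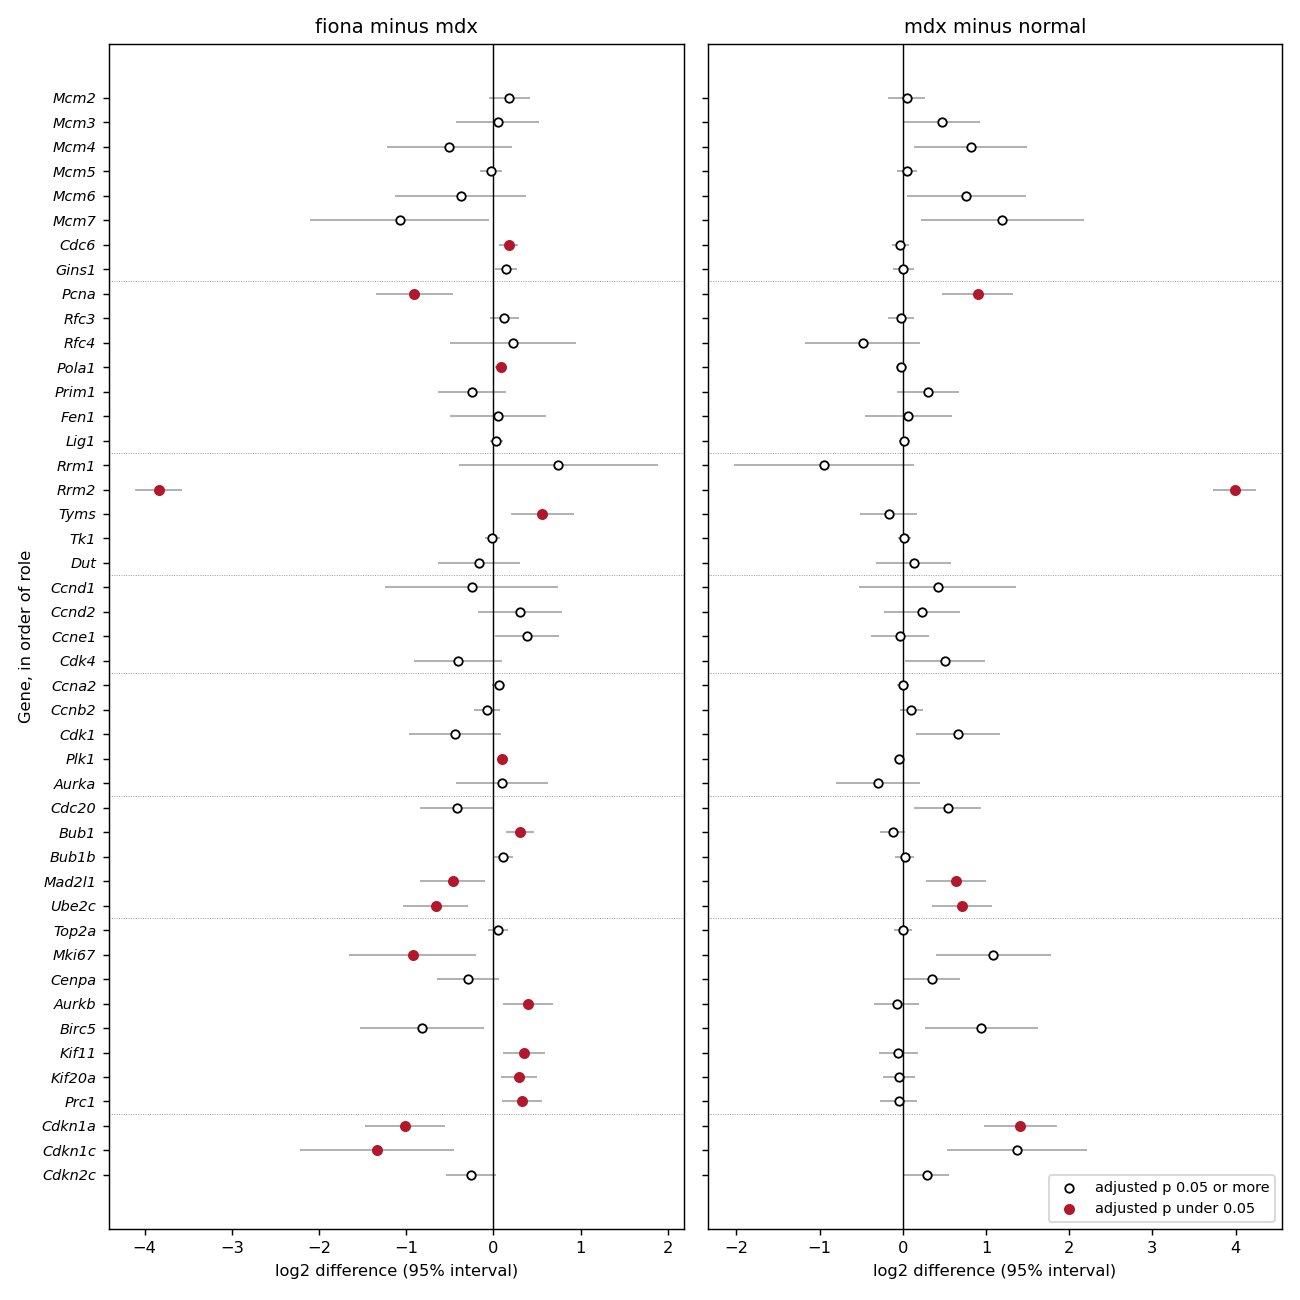
Log2 difference of each member with its 95% interval from limma, fiona minus mdx on the left and mdx minus normal on the right, genes grouped by role. Rrm2 stands far from 0 in both panels, and most other members lie near 0.

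At the replication fork, Pcna encodes the sliding clamp that holds the polymerase on DNA. Pcna measured 8.24, 8.90, 7.78, 7.98 and 8.08 in fiona arrays. Its lowest, median and highest values were 8.60, 9.01 and 9.80 in mdx arrays and 8.01, 8.25 and 8.35 in normal arrays. Every mdx array lay above every normal array, and fiona array 2 lay within the mdx range. The mdx minus normal difference was 0.90 ± 0.20 (SE; 1.87-fold, adjusted p = 0.0147) and the fiona minus mdx difference -0.91 ± 0.21 (1.87-fold lower in fiona, adjusted p = 0.0135). Without mdx arrays 1 and 4, both of female pattern, the Pcna difference between mdx and normal muscle was 0.65 (adjusted p = 0.0684). In arrays of male pattern alone it was 0.68 (adjusted p = 0.0126). With the replicate number as a block, both Pcna calls were lost, at 0.90 (adjusted p = 0.0534) between mdx and normal muscle and -0.91 (adjusted p = 0.0507) between fiona and mdx muscle.

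The other fork members showed no difference between mdx and normal muscle that passed the test. They were the clamp loader subunits Rfc3 and Rfc4, the polymerase and primase subunits Pola1 and Prim1, the flap nuclease Fen1 and the ligase Lig1. Their mdx minus normal differences ran from -0.48 for Rfc4 to 0.30 for Prim1. Lig1 and Pola1 lay at or under the control level throughout. Pola1 measured 2.58, 2.49, 2.55, 2.57 and 2.59 in fiona arrays and 2.41, 2.48 and 2.49 at the lowest, median and highest mdx array, and it was called higher in fiona (adjusted p = 0.0416) with both groups at that level.

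Among the nucleotide supply genes only Rrm2 was called between mdx and normal muscle. Rrm1, the catalytic subunit of the same reductase, measured 7.06, 6.94, 6.06, 7.30 and 7.31 in fiona arrays, then 3.33, 6.71 and 7.16 at the lowest, median and highest mdx array, and 6.93, 7.02 and 7.53 in normal arrays. A single array, mdx 1, stood low at 3.33, and the other mdx arrays lay between 6.21 and 7.16, overlapping both other groups. The low value was not seen on the other Rrm1 probe set. There mdx array 1 measured 6.57, the other mdx arrays 5.88 to 6.71 and the normal arrays 5.93 to 6.45. The mdx minus normal difference of Rrm1 was -0.95 (95% interval -2.03 to 0.14, adjusted p = 0.347). Tyms, the thymidylate synthase gene, measured 4.13, 4.04, 5.24, 4.22 and 4.81 in fiona arrays and 3.77, 3.93 and 4.04 at the lowest, median and highest mdx array. Fiona arrays 3 and 5 were the high ones, and the groups did not overlap. The fiona minus mdx difference of Tyms was 0.56 ± 0.17 (SE; 1.48-fold, adjusted p = 0.0198), 0.48 without fiona array 5 (adjusted p = 0.0546) and 0.12 without fiona arrays 3 and 5. Those 2 arrays also had the highest array medians of the series. Tk1 (thymidine kinase) lay at or under the control level, and Dut, the dUTPase that keeps uracil out of DNA, differed by 0.13 between mdx and normal muscle (adjusted p = 0.683).

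The licensing and helicase genes were called in 0 of 8 cases between mdx and normal muscle, although 7 of 8 differences were positive, with a median of 0.26. Mcm7 had the largest difference of this group. It measured 4.56, 5.54, 4.40, 3.83 and 4.66 in fiona arrays, then 4.57, 5.29 and 7.67 at the lowest, median and highest mdx array, and 3.93, 4.45 and 4.90 in normal arrays. The mdx values spread widely, with arrays 1 and 6 highest and arrays 2 and 3 within the range of normal arrays. The Mcm7 difference was 1.19 (95% interval 0.21 to 2.17, adjusted p = 0.182) between mdx and normal muscle and -1.08 (95% interval -2.10 to -0.05, adjusted p = 0.0883) between fiona and mdx muscle. Mcm4 differed by 0.82 (adjusted p = 0.194) and Mcm6 by 0.76 (adjusted p = 0.257) between mdx and normal muscle. Cdc6, which loads the helicase, measured 3.48, 3.38, 3.55, 3.46 and 3.64 in fiona arrays and 3.29, 3.32 and 3.37 at the lowest, median and highest mdx array. The groups did not overlap, and the difference was 0.18 ± 0.05 (SE; adjusted p = 0.0167).

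**Figure D3:**
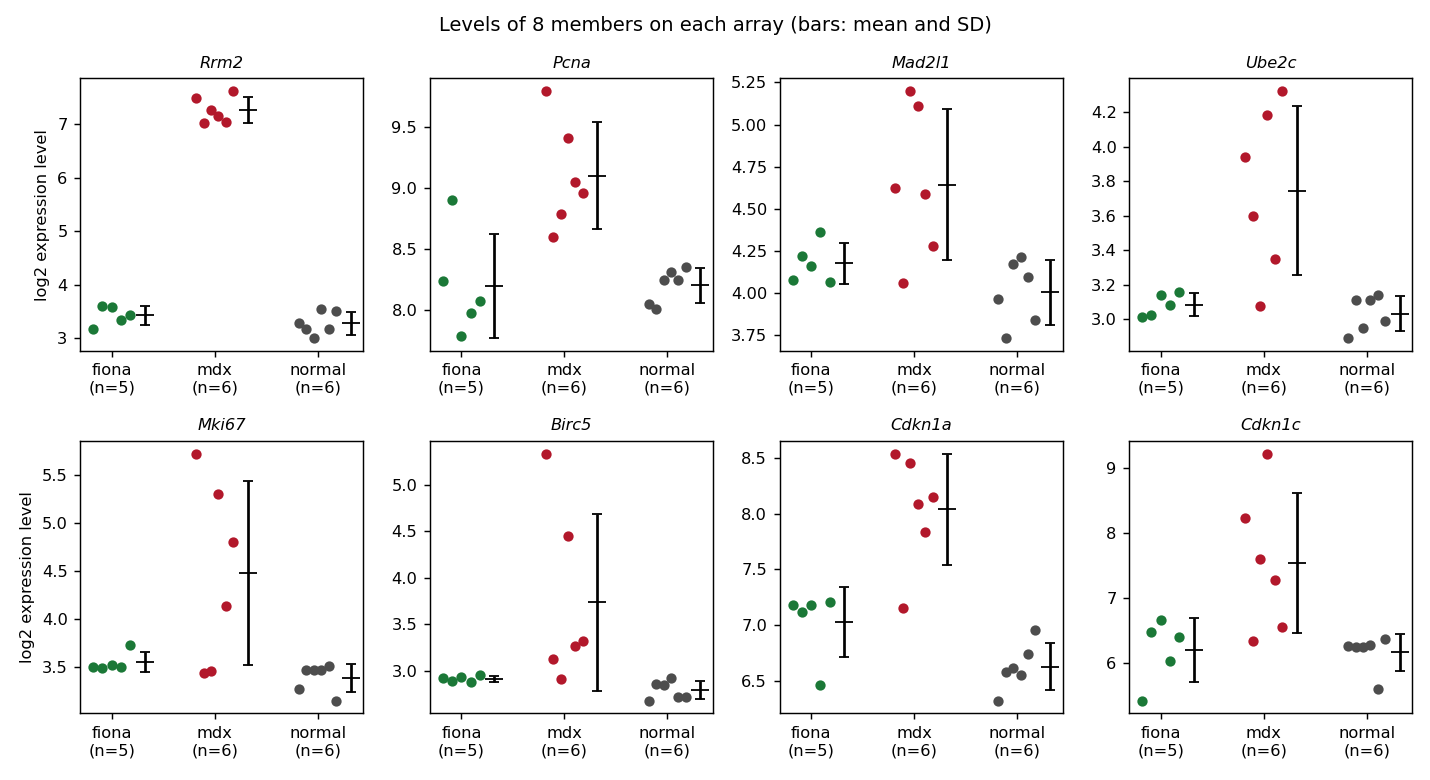
Log2 values of 8 members on each array, with groups in the order fiona, mdx, normal and bars for the group means. Rrm2 separates mdx arrays from all others, while Mki67 and Birc5 spread over more than 2 log2 units among mdx arrays.

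Between mdx and normal muscle, the mitosis members called higher on their brightest probe sets belonged to the checkpoint and the anaphase ubiquitin ligase. Top2a on its second probe set and some mitosis genes outside the members were also called higher, as given below. Ube2c, the ubiquitin-conjugating enzyme that works with that ligase, measured 3.01, 3.03, 3.14, 3.08 and 3.16 in fiona arrays. Its lowest, median and highest values were 3.08, 3.77 and 4.32 in mdx arrays and 2.89, 3.05 and 3.14 in normal arrays. Mdx array 3 lay within the range of both other groups, and the other mdx arrays lay above them. Ube2c gave an mdx minus normal difference of 0.71 ± 0.17 (SE; 1.64-fold, adjusted p = 0.0214) and the fiona minus mdx difference -0.66 ± 0.18 (1.58-fold lower in fiona, adjusted p = 0.0142). The mdx minus normal call of Ube2c was lost without normal array 1, at 0.68 (adjusted p = 0.0527). Without mdx arrays 1 and 4 both calls were lost, at 0.55 (adjusted p = 0.128) and -0.50 (adjusted p = 0.058).

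Mad2l1, which encodes the checkpoint protein MAD2, measured 4.07, 4.22, 4.16, 4.36 and 4.07 in fiona arrays. Its lowest, median and highest values were 4.06, 4.60 and 5.20 in mdx arrays and 3.73, 4.03 and 4.22 in normal arrays. Mdx arrays 3 and 4 were highest, and array 2 lay within the range of normal arrays. Between mdx and normal muscle the difference was 0.64 ± 0.17 (SE; 1.56-fold, adjusted p = 0.0381), a call kept in 7 of 17 fits that each left out 1 array. It was lost without fiona array 3, without mdx array 1, 3, 4 or 5, or without any normal array but array 4, at differences of 0.53 to 0.67. The fiona minus mdx difference was -0.47 ± 0.18 (1.38-fold lower in fiona, adjusted p = 0.0466), a call kept in 4 of 17, without fiona array 4, mdx array 2 or 6 or normal array 2. Cdc20, the activator of the same ligase, differed by 0.54 between mdx and normal muscle (adjusted p = 0.133).

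The checkpoint kinase gene Bub1 went the other way between fiona and mdx muscle. Bub1 measured 3.68, 3.56, 3.84, 3.74 and 4.01 in fiona arrays and 3.36, 3.45 and 3.54 at the lowest, median and highest mdx array, without overlap. The difference was 0.31 ± 0.08 (SE; 1.24-fold, adjusted p = 0.0135) in the deposited values and -0.02 with the control level as a covariate. That level was higher in every fiona array than in every mdx array. The partner of Bub1, Bub1b, differed by 0.11 (adjusted p = 0.132).

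Of the genes of mitotic entry, Ccnb2 and Plk1 lay at or under the control level on every array. Plk1, a kinase of mitotic entry, measured 2.55, 2.51, 2.55, 2.66 and 2.58 in fiona arrays and 2.43, 2.47 and 2.49 at the lowest, median and highest mdx array, and was called higher in fiona (adjusted p = 0.0158) with both groups at that level. Cdk1, the kinase that drives mitosis, lay above the control level in 1 of 5 fiona, 6 of 6 mdx and 0 of 6 normal arrays. It measured 2.62, 2.67, 2.69, 2.42 and 3.62 in fiona arrays, then 2.82, 2.92 and 4.11 at the lowest, median and highest mdx array, and 2.46, 2.59 and 2.67 in normal arrays. Mdx arrays 1 and 4 were high, the other 4 stood just above the normal arrays, and fiona array 5 lay within the mdx range. Cdk1 did not pass the test between mdx and normal muscle (difference 0.67, adjusted p = 0.143). The cyclin gene Ccna2 and the kinase gene Aurka also lay near the control level and were not called in any comparison.

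Mki67, the gene of the proliferation antigen Ki-67, measured 3.50, 3.49, 3.53, 3.51 and 3.73 in fiona arrays. Its lowest, median and highest values were 3.44, 4.47 and 5.73 in mdx arrays and 3.15, 3.47 and 3.52 in normal arrays. Mdx arrays 1, 4, 5 and 6 lay above every other array, while mdx arrays 2 and 3 lay within the normal range. The fiona minus mdx difference was -0.93 ± 0.34 (SE; 1.90-fold lower in fiona, adjusted p = 0.0425), a call kept in 3 of 17 fits that each left out 1 array, those without mdx array 2 or 3 or normal array 6. The mdx minus normal difference was 1.09 ± 0.32 (adjusted p = 0.0729). Mdx arrays 1 and 4, highest for Mki67 at 5.73 and 5.31, were the mdx arrays of female pattern. Without them the differences were -0.41 (adjusted p = 0.174) and 0.57 (adjusted p = 0.242). With sex pattern as a covariate in the fit over all arrays, the Mki67 differences were -1.22 (adjusted p = 0.0166) and 0.98 (adjusted p = 0.0824).

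Birc5, which encodes survivin of the chromosomal passenger complex, had a like spread: 2.92, 2.89, 2.94, 2.88 and 2.96 in fiona arrays, against 2.91, 3.30 and 5.34 at the lowest, median and highest mdx array and 2.68, 2.79 and 2.93 at those normal arrays. The same mdx arrays, 1 at 5.34 and 4 at 4.45, were highest. Birc5 passed the test in neither comparison (mdx minus normal 0.94, adjusted p = 0.117; fiona minus mdx -0.82, adjusted p = 0.0626). Aurkb, the kinase of that complex, measured 4.34, 4.04, 4.57, 4.43 and 5.14 in fiona arrays and 4.05, 4.10 and 4.16 at the lowest, median and highest mdx array. Its difference was 0.40 ± 0.14 (SE; 1.32-fold, adjusted p = 0.0319). Fiona array 5 was the highest, fiona array 2 lay below every mdx array, and without array 5 the Aurkb difference was 0.24 (adjusted p = 0.0539).

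The spindle and cytokinesis genes Kif11, Kif20a and Prc1 were also called higher in fiona than in mdx muscle. Kif11, a motor that pushes spindle poles apart, measured 4.41, 4.26, 4.85, 4.36 and 4.85 in fiona arrays, against 3.98, 4.24 and 4.36 at the lowest, median and highest mdx array (difference 0.35, adjusted p = 0.0257). Kif20a, a motor of cytokinesis, measured 3.48, 3.41, 3.75, 3.51 and 4.01 in fiona arrays, against 3.21, 3.36 and 3.41 (difference 0.29, adjusted p = 0.0256). Prc1, which bundles the microtubules between separating chromosomes, measured 4.15, 4.01, 4.61, 4.47 and 4.46 in fiona arrays, against 3.84, 4.02 and 4.16 (difference 0.33, adjusted p = 0.028). Fiona and mdx arrays overlapped for Kif11 and Prc1 and were barely apart for Kif20a. Leaving out fiona array 3 ended the call of each of these 3 genes, at 0.28 for Kif11 (adjusted p = 0.0716), 0.26 for Kif20a (adjusted p = 0.0635) and 0.26 for Prc1 (adjusted p = 0.0785), and leaving out fiona array 5 did so as well. Without fiona arrays 3 and 5, 0 of the 9 higher calls were left, and the higher calls over all genes fell from 3977 to 77. Fiona array 5 was the highest fiona array for 28 of 45 members. The control level averaged 2.89 in fiona and 2.70 in mdx arrays, a gap of 0.20, which is wider than the differences of Cdc6, Plk1 and Pola1.

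Of the G1 genes, 0 of 4 were called in any comparison on their brightest probe sets. Dimmer probe sets of Cdk4 and Ccnd2 gave calls, as given below. Cdk4, the kinase partner of D cyclins, had the largest mdx minus normal difference. It measured 6.68, 7.43, 6.80, 6.51 and 6.28 in fiona arrays, then 6.75, 6.95 and 8.06 at the lowest, median and highest mdx array, and 6.37, 6.64 and 6.91 in normal arrays. The groups overlapped, and the difference was 0.51 (adjusted p = 0.259). The D cyclin genes Ccnd1 and Ccnd2 differed by 0.42 and 0.23 between mdx and normal muscle, and the E cyclin gene Ccne1 by -0.03.

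Among the inhibitors, Cdkn1a encodes p21, a p53 target that blocks cyclin-dependent kinases and is induced when myoblasts leave the cycle. Cdkn1a measured 7.18, 7.12, 7.18, 6.46 and 7.20 in fiona arrays. Its lowest, median and highest values were 7.16, 8.12 and 8.54 in mdx arrays and 6.32, 6.59 and 6.96 in normal arrays. All mdx arrays lay above all normal arrays, and mdx array 2, the lowest, overlapped fiona arrays. For Cdkn1a the mdx minus normal difference was 1.41 ± 0.21 (SE; 2.66-fold, adjusted p = 6.13e-04) and the fiona minus mdx difference -1.01 ± 0.22 (2.01-fold lower in fiona, adjusted p = 0.0121). Fiona and normal muscle differed by 0.40 (95% interval -0.06 to 0.86). The other Cdkn1a probe set lay above the control level in 0 of 5 fiona, 1 of 6 mdx and 0 of 6 normal arrays and gave no call.

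Cdkn1c, which encodes the related inhibitor p57, measured 5.42, 6.49, 6.66, 6.04 and 6.41 in fiona arrays. Its lowest, median and highest values were 6.34, 7.44 and 9.22 in mdx arrays and 5.61, 6.26 and 6.37 in normal arrays. Mdx arrays 1 and 4, of female pattern, were highest at 8.23 and 9.22, and mdx arrays 2 and 6 lay within the range of fiona arrays. The fiona minus mdx difference was -1.34 ± 0.42 (SE; 2.52-fold lower in fiona, adjusted p = 0.023), and the mdx minus normal difference 1.37 ± 0.40 (adjusted p = 0.0647). Without mdx arrays 1 and 4, the fiona minus mdx difference of Cdkn1c was -0.74 (adjusted p = 0.071), and without fiona array 1 it was -1.14 (adjusted p = 0.0541). The INK4 inhibitor gene Cdkn2c was called in no comparison.

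The arrays fell into 2 sets by the largest pattern left after the group means, with 2 fiona, 3 mdx and 3 normal arrays in set 1 and 3 of each in set 2. No label gives a batch, and each set has few arrays. Rrm2 differed between mdx and normal muscle by 3.92 in set 1 and 4.06 in set 2, and between fiona and mdx muscle by -3.90 and -3.84, all called. For mdx minus normal, Pcna gave 0.81 in set 1 and 0.98 in set 2, Ube2c 0.47 and 0.96, Mad2l1 0.80 and 0.48, and Cdkn1a 1.49 and 1.33. For fiona minus mdx, Pcna gave -0.98 in set 1 and -0.87 in set 2, Ube2c -0.49 and -0.84, Mad2l1 -0.75 and -0.17, Mki67 -0.80 and -1.07, Cdkn1a -1.31 and -0.78, and Cdkn1c -2.30 and -0.52. All of these kept their direction in both sets, but most calls did not hold in each set. In set 2 alone, Pcna, Mad2l1 and Cdkn1a lost both calls, with adjusted p between 0.114 for Cdkn1a in mdx minus normal and 0.41 for Mad2l1 in fiona minus mdx. Ube2c lost both calls in set 1 (adjusted p = 0.222 and 0.245) and the fiona minus mdx call in set 2 (0.0789). The fiona minus mdx call of Mki67 was lost in both sets (adjusted p = 0.235 and 0.252), and that of Cdkn1c in set 2 (0.42). The fiona minus mdx differences of Mad2l1, Cdkn1a and Cdkn1c were smaller in size in set 2.

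In mdx against normal muscle, 2 of 20 replication genes and 2 of 18 mitosis genes rose (3.22% of all genes), and 0 of either fell (1.44%). Between fiona and mdx muscle, 2 of 20 replication and 3 of 18 mitosis genes fell (6.79% of all genes), and 3 and 6 rose (32.1%). The mean over replication members lay between 4.38 and 4.48 in fiona, 4.46 and 4.94 in mdx and 4.22 and 4.43 in normal arrays. The mean over mitosis members lay between 3.30 and 3.61 in fiona, 3.35 and 3.81 in mdx and 3.17 and 3.36 in normal arrays. Replication minus mitosis had a median of 1.08 in fiona, 1.11 in mdx and 1.06 in normal arrays. Mdx arrays 1 and 4 had the highest means of both groups of genes, 4.94 and 4.78 for replication and 3.81 and 3.68 for mitosis. No test was made of these means or of their difference.

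**Figure D4:**
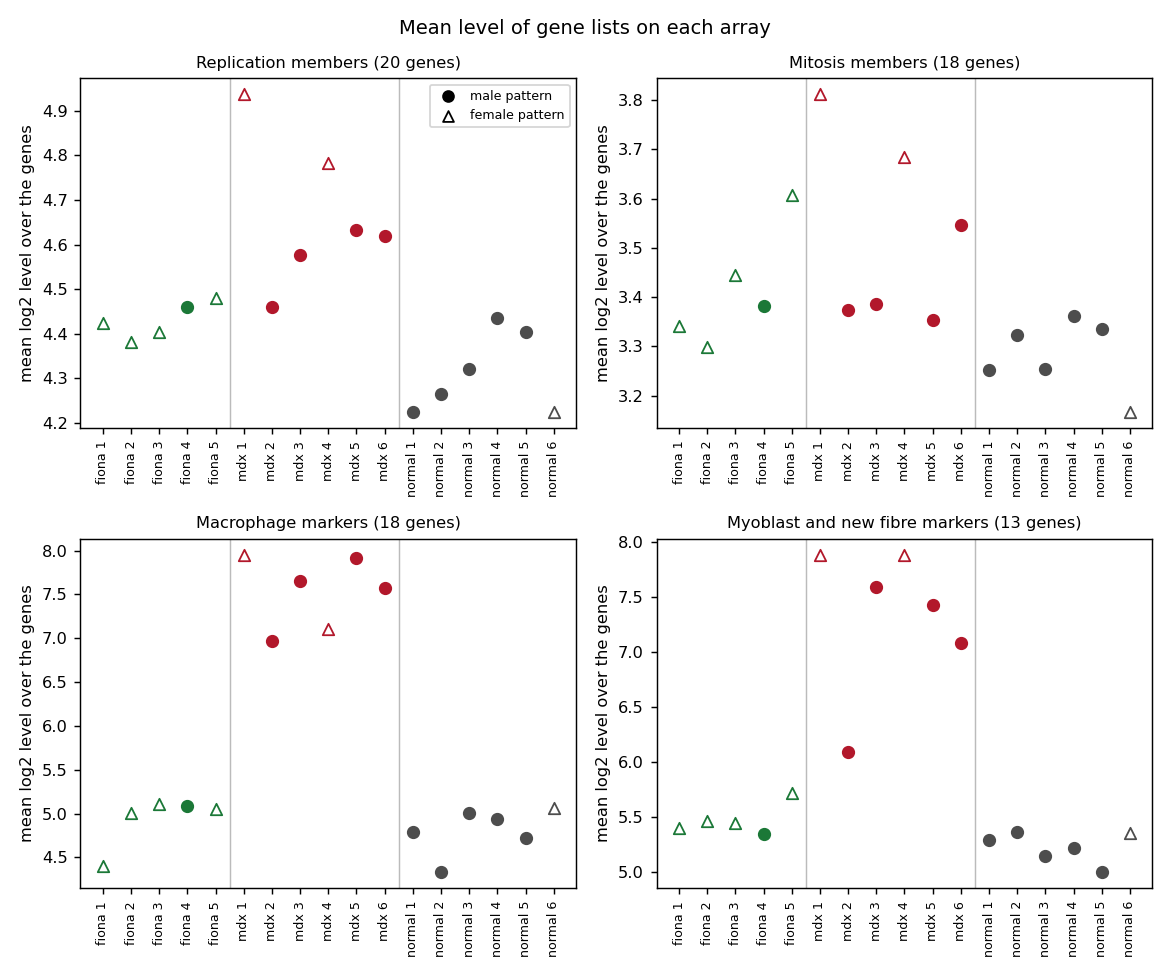
Mean log2 value per array over replication members, mitosis members, macrophage markers and myoblast and new-fibre markers, with groups in the order fiona, mdx, normal and triangles for arrays of female pattern. The marker lists separate mdx arrays from all others by more than the replication and mitosis means do.

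Members with several probe sets did not always give the same answer. Of the 45 members, 24 had more than 1 probe set, and among their 40 other probe sets 4 were called higher and 0 lower in mdx than in normal muscle, against 3.22% and 1.44% of all genes. Between fiona and mdx muscle 13 were called higher and 5 lower, against 32.1% and 6.79% of all genes. These probe sets were tested in a fit over 20380 probe sets, while the shares of all genes are for brightest probe sets. With second brightest probe sets, 312 of 12393 genes were higher and 145 lower in mdx than in normal muscle. Between fiona and mdx muscle these counts were 4800 and 724. The second Rrm2 probe set differed by 2.13 between mdx and normal muscle (adjusted p = 5.56e-07) and -2.002 between fiona and mdx muscle (adjusted p = 3.21e-06), and the third lay between 3.20 and 3.85 on all arrays. Mcm6 changed on its second probe set, which ranged over 3.19 to 3.59 in fiona, 4.28 to 7.16 in mdx and 3.14 to 3.67 in normal arrays. Its mdx minus normal difference was 1.94 ± 0.36 (SE; adjusted p = 0.00545) and its fiona minus mdx difference -1.87 ± 0.38 (adjusted p = 0.0102), with every mdx array above all others.

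The second probe sets of Cdk4, Top2a and Mcm3 also gave calls that the brightest did not. Cdk4 differed by 0.74 between mdx and normal muscle (adjusted p = 0.028) and -0.64 between fiona and mdx muscle (adjusted p = 0.0169). Top2a, the topoisomerase that untangles chromosomes, differed by 0.76 (adjusted p = 0.0317) and -0.74 (adjusted p = 0.0137), with 0 of 5 fiona, 3 of 6 mdx and 0 of 6 normal arrays above the control level. Mcm3 differed by 1.14 (adjusted p = 0.0676) and -0.98 (adjusted p = 0.0338). Some dimmer Ccnd2 probe sets were called higher in fiona than in mdx muscle, as were 32.1% of all genes. They differed by 0.75 (adjusted p = 0.0136), 0.31 (adjusted p = 0.0189) and 0.21 (adjusted p = 0.013). The other Ccnd2 probe sets were not called in that comparison, at -0.34 to 0.30. The brightest probe sets of Rrm2, Mcm3, Mcm4, Mcm6, Fen1, Ccnd2, Cdk4 and Cdc20 are of a kind that the manufacturer marks as able to bind other transcripts. Their names end in _x_at. Those of Mcm2, Mcm7 and Aurkb end in _s_at, and whether they also bind other transcripts was not examined here.

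**Figure D5:**
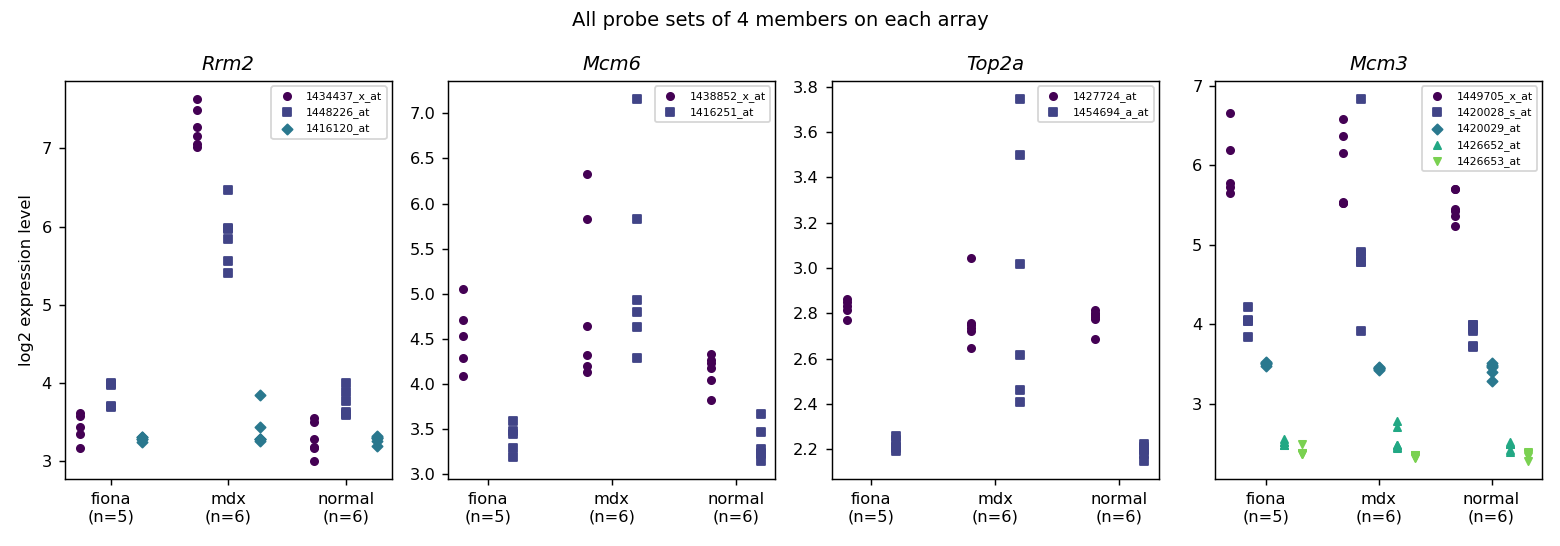
Log2 values per array on every probe set of Rrm2, Mcm6, Top2a and Mcm3, ordered from the brightest, with groups in the order fiona, mdx, normal. On the second Mcm6 probe set all mdx arrays lie above all others, while on the brightest the groups overlap.

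Of 43 other replication genes measured, 0 were called between mdx and normal muscle, with 20 positive and 23 negative differences. Between fiona and mdx muscle 7 were higher (16.3%, against 32.1% of all genes) and 3 lower (6.98%, against 6.79%). The lower genes were Gins4, a helicase partner, at -0.76 (adjusted p = 0.0314), Samhd1, which degrades nucleotides, at -0.65 (adjusted p = 0.0291), and Ctps, a CTP synthase, at -0.55 (adjusted p = 0.022). Prim2, a primase subunit, was the highest at 0.41 (adjusted p = 0.027).

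Of 51 other mitosis genes, 4 were higher (7.84%, against 3.22% of all genes) and 0 lower (1.44% of all genes) in mdx than in normal muscle. They were the tubulin-binding Stmn1 at 1.58 (adjusted p = 0.0137), the kinase-binding Cks2 at 1.47 (adjusted p = 0.0321) and Cks1b at 1.37 (adjusted p = 0.00948), and the motor gene Kif22 at 1.06 (adjusted p = 0.0225). In fiona, 2 of the 51 were lower than in mdx muscle, Cks1b at -1.64 (adjusted p = 0.00443) and Cks2 at -1.35 (adjusted p = 0.0176). Another 23 (45.1%) were higher, led by Kif23 at 0.57 (adjusted p = 0.0154) and Kif18a at 0.47 (adjusted p = 0.0135). Over all genes, 6.79% were lower and 32.1% higher.

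Of 30 other G1, E2F and p53 genes, 0 were higher (3.22% of all genes) and 2 lower (6.67%, against 1.44%) in mdx than in normal muscle. These 2 were E2f6, a repressor of the E2F family, at -1.19 (adjusted p = 8.98e-04) and the stress gene Gadd45b at -0.96 (adjusted p = 0.0111). Between fiona and mdx muscle 9 were higher and 3 lower. The higher ones included Gadd45b at 0.78 (adjusted p = 0.015) and E2f6 at 0.70 (adjusted p = 0.0147). The lower ones were Gadd45g at -2.0 (adjusted p = 0.0205), Gadd45a at -1.05 (adjusted p = 0.0265) and the inhibitor gene Cdkn2d at -0.87 (adjusted p = 0.0135).

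Markers of macrophages and of myoblasts and new fibres also differed between groups. Over all genes, 3.22% were higher in mdx than in normal muscle, and 6.79% were lower and 32.1% higher in fiona than in mdx muscle. Of 18 macrophage markers, 14 were higher in mdx than in normal muscle and 15 were lower in fiona than in mdx muscle. Their summed level on the linear scale ran from 969 to 2260 in fiona, 9313 to 20489 in mdx and 782 to 2119 in normal arrays. Cd68, a lysosomal protein of macrophages, lay above the control level in 0 of 5 fiona, 6 of 6 mdx and 0 of 6 normal arrays. Of 13 myoblast and new-fibre markers, 6 were higher in mdx than in normal muscle, and 8 were lower and 1 higher in fiona than in mdx muscle. Their summed level ran from 2925 to 5795 in fiona, 7273 to 15057 in mdx and 3116 to 5928 in normal arrays. Myog, the regulator of myoblast differentiation, differed by 3.90 between mdx and normal muscle (adjusted p = 0.0012) and -3.68 between fiona and mdx muscle (adjusted p = 0.00321). Of 8 fibroblast markers, 2 were higher in mdx than in normal muscle and 5 lower in fiona than in mdx muscle, and 0 of 7 endothelial markers were called in either comparison. Of 8 lymphocyte markers, Ptprc, which most white blood cells express, was higher in mdx than in normal muscle at 3.18 (adjusted p = 2.2e-05) and lower in fiona than in mdx muscle at -2.98 (adjusted p = 9.7e-05), and 5 others were higher in fiona. Of 3 erythroid markers, 0 were called between mdx and normal muscle and 1 was higher in fiona than in mdx muscle. The part of these cells in the levels of the members was not tested.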

How the data were processed

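Total RNA of the tibialis anterior was hybridised to 17 Affymetrix arrays. The authors deposited log2 expression values per probe set, and per the submitters' processing notes RMA and GCRMA were used; no source used here says which of them made the table. Control probe sets (64) and probe sets with several (691) or no (1555) gene symbols were left out, which left 20380 probe sets of 12393 genes, each represented by its brightest probe set. No filter on level was applied. Group differences were fitted in R 4.3.3 by limma 3.58.1 (eBayes after lmFit, 3 groups in one fit, Benjamini-Hochberg over all genes, called under 0.05). The fit was also run on simulated data with noise drawn independently for each gene. In the real arrays part of the noise is shared by many genes, so that run cannot show how shared noise affects the calls. The members and gene lists were chosen with earlier results of these data known, so no list is tested. Values were given per array for called members and for the member with the largest difference in each role group; from the lists of other pathway genes, called genes with the largest differences were named. An array's control level served as a floor.

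Alternatives were other probe-set rules, scalings, a filter on dim genes, blocks for replicate number, array set and sex pattern, subsets of arrays, and each array left out. The array sets are the signs of the largest residual component, which held 42.5% of the variance left after the group means. Replicate numbers were not used to pair samples. Motifs and sequences came from RefSeq promoters. Intensities of single probes were not used here.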

Additional observations from a re-analysis of the deposited data

Results flagged for a closer look

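In 20 of 135 groups of arrays (45 members in 3 groups), 1 array lay far from the others by Dixon's ratio; chance alone marks about 1 in 20 groups. Among fiona arrays, array 5 was high for Cdk1 at 3.62 (others 2.42 to 2.69), Mki67 at 3.73 (others 3.49 to 3.53) and Tk1 at 2.07 (others 2.02 to 2.03). Fiona array 4 was high for Mcm2 at 4.86 (others 4.33 to 4.43) and low for Cdkn1a at 6.46 (others 7.12 to 7.20), and fiona array 3 was low for Aurka at 2.46 (others 2.80 to 2.93).

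Among mdx arrays, array 1 was low for Rrm1 at 3.33 (others 6.21 to 7.16) and high for Dut at 6.32 (others 4.85 to 4.94) and Mcm5 at 2.48 (others 2.09 to 2.11). The low Rrm1 value was on its brightest probe set, and on the other one mdx array 1 measured 6.57. Mdx array 6 was low for Pola1 at 2.41 (others 2.48 to 2.49) and high for Ccna2 at 2.90 (others 2.74 to 2.79). Mdx array 2 was high for Top2a at 3.05 (others 2.65 to 2.76), and mdx array 5 for Bub1b at 3.15 (others 3.00 to 3.03).

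Among normal arrays, array 6, the only normal array of female pattern, held 5 of these values. It was high for Dut at 5.47 (others 4.84 to 4.95) and Ccnd1 at 5.37 (others 3.91 to 4.31), and low for Top2a at 2.69 (others 2.78 to 2.82), Kif11 at 3.96 (others 4.24 to 4.37) and Kif20a at 3.14 (others 3.38 to 3.48). Normal array 3 was low for Aurka at 2.08 (others 2.90 to 3.35) and normal array 5 for Cdkn1c at 5.61 (others 6.24 to 6.37).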

How the results depend on the processing

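Rrm2 kept its direction and its call in both comparisons with mdx under all 17 other settings and in all 17 fits that left out 1 array. The number of members higher in mdx than in normal muscle, 5 in the deposited values, was 2 in array set 2 alone, and 3 with only the 2 groups in the fit, without the mdx arrays of female pattern, or with the control level as a covariate. Over all genes, 399 were higher in the deposited values, and 172, 345, 305 and 257 in those fits, in the same order. The number of members lower, 0, was 1 after median-centring and 3 in array set 1 alone. Over all genes, 1501 and 1876 were lower in those fits, against 179 in the deposited values. The number higher in fiona than in mdx muscle, 9, was 5 after median-centring, 4 after quantile normalization, 14 with values raised to the control level, 2 in arrays of male pattern (1 fiona array), 3 with only the 2 groups in the fit or without the mdx arrays of female pattern, and 0 in array set 2 alone, without the 2 arrays of highest median, or with the control level as a covariate. The number lower, 7, was 1 in array set 2 alone or with that covariate, 3 in arrays of male pattern, 4 with only the 2 groups in the fit or without the mdx arrays of female pattern, and 2 without the 2 arrays of highest median. The median fiona minus mdx difference of replication members was -0.0746 in array set 2 alone and -0.0943 with the covariate, and that of mitosis members -0.0999 with the covariate. The number higher in fiona than in normal muscle, 0, was 1 in array set 1 alone and 1 in arrays of male pattern. The all-gene calls between fiona and mdx muscle, 3977 higher and 841 lower in the deposited values, moved as well. They were 5093 and 906 with values raised to the control level, and 13 and 97 in array set 2 alone. Without the 2 arrays of highest median they were 77 and 193, and with the control level as a covariate 7 and 39. The cause of these shifts was not tested.

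With 1 array left out at a time, mdx minus normal gave 3 to 7 members higher and 0 to 0 lower, with medians of 0.0033 to 0.0795 for replication and -0.0052 to 0.0233 for mitosis. For fiona minus mdx these were 3 to 11 higher and 4 to 9 lower, with medians of 0.0025 to 0.0697 and 0.0016 to 0.082, and for fiona minus normal 0 to 3 higher and 0 to 0 lower. Single arrays moved these counts by over 1.5 times: without normal array 1, 3 members were higher in mdx than in normal muscle; without fiona array 3, fiona array 5 or mdx array 5, 4, 3 and 5 were higher in fiona than in mdx muscle; without fiona array 1, 4 were lower; and without fiona array 2, 3 were higher in fiona than in normal muscle. Over all genes, these fits in the same order gave 324 higher, against 399 with all arrays. They then gave 2840, 2618 and 2743 higher, against 3977, and 775 lower, against 841. The last gave 856 higher, against 0.

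With the replicate block, Pcna lost both calls, and 4 members were called higher and 0 lower in mdx than in normal muscle. In fiona, 0 were called higher and 2 lower than in mdx muscle, and 0 were called between fiona and normal muscle. Over all genes the block moved the calls to 185 higher and 324 lower between fiona and mdx muscle. Deviations of same-numbered arrays from the mdx and normal means correlated between 0.34 and 0.61 for 5 of 6 numbers, and at 0.09 for number 1. For fiona and mdx the range was -0.42 to 0.30. For each of the 6 numbers, the mdx and the normal array lay in the same array set. The numbers were not taken as pairing, since some correlations were under 0.1 and no label ties a number to a shared source. Between mdx and normal arrays only number 1 was under 0.1, and the other such values involved fiona arrays.

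Of fiona minus mdx differences called in the deposited values or under an alternative, those that turned were Mcm3 (-0.98), Prim1 (0.28), Dut (0.15) and Top2a (-0.74) on the second brightest probe set, Top2a (-0.34) on the mean of probe sets, and Pola1 (-0.0072) after quantile normalization. With values raised to the control level, Mcm5, Tk1 and Ccnb2 each turned to 0.20, which is the gap in that level. With the control level as a covariate, Cdc6 (-0.023), Pola1 (-0.0139), Bub1 (-0.0174), Aurkb (-0.11), Kif20a (-0.063) and Prc1 (-0.0882) turned. The control level was higher in every fiona array than in every mdx array, so that fit cannot separate it from the group difference. Some differences that were called in neither turned as well. Members near the control level carry too little signal to show a change. The alternatives without the mdx arrays of female pattern, without the 2 arrays of highest median, and with the control level as a covariate were chosen after seeing the data.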
